A study of Homo sapiens with 9 samples.

Results

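The axon guidance ligands and receptors measured here were the 68 protein-coding genes of the table whose symbols belong to the semaphorins, plexins, neuropilins, Eph receptors, ephrins, slits, ROBO receptors, netrins and UNC5 receptors. The rule used their symbols and annotation as protein-coding, and no measured value, and was applied to the 58735 genes listed. RNA was sequenced from SKOV3 cells, a human ovarian cancer line with epithelial features, in 3 groups of 3 libraries. WT CDK9 cells expressed wild-type CDK9, ALK inhibitor-treated WT CDK9 cells carried the same CDK9 and received an ALK inhibitor for 24 h, and Tyr19Phe CDK9 cells expressed CDK9 in which tyrosine 19 was replaced by phenylalanine and received no inhibitor. CDK9 is the kinase of the elongation factor P-TEFb, and the study asked how loss of its phosphorylation by the receptor kinase ALK changes the cells. The study describes lines that stably re-express CDK9 in cells depleted of their own CDK9, whereas the labels give only the CDK9 expressed. By that account WT and Tyr19Phe CDK9 cells were separate lines, so effects of the mutation and other differences between the lines cannot be told apart. The Tyr19Phe CDK9 libraries were also sequenced more deeply, as given below. The inhibitor, its dose for these libraries, and whether each line was a clone are not given in the sources used here. Nothing says that the 3 libraries of a group came from separate cultures, so p-values measure the spread between these libraries, which may be technical.

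Axon guidance molecules steer growing neurites by attraction or repulsion, and epithelial and tumour cells use the same ligand and receptor pairs for contact, adhesion and migration. Secreted class 3 semaphorins bind neuropilins that sit beside plexins, whereas most membrane-bound semaphorins bind plexins directly. Ephrins are membrane-anchored ligands of the Eph receptor tyrosine kinases and signal between touching cells. Slits bind ROBO receptors, and netrins bind DCC, neogenin and UNC5 receptors or, in the case of netrin-4, laminins of the basement membrane.

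Library totals ran from 18169050 to 20974903 counts in the 6 WT CDK9 and inhibitor-treated libraries and from 26485891 to 29320184 in Tyr19Phe CDK9, and 3 counts, taken as the floor of detection, equalled 0.102 to 0.165 CPM (counts scaled to a common library size of 1000000 with TMM). CDK9 itself was at 48.6 ± 1.03 CPM in WT CDK9 cells, 45.6 ± 1.77 CPM with the inhibitor and 55.0 ± 3.94 CPM in Tyr19Phe CDK9 cells (SD, n = 3 each). Against WT CDK9 it was called neither with the inhibitor nor in Tyr19Phe CDK9 cells (edgeR adjusted p = 0.67 and 0.11). Its log2 level was 0.27 ± 0.08 (SE) higher in Tyr19Phe CDK9 than in inhibitor-treated cells (edgeR adjusted p = 0.0096). Counts per gene do not tell the WT from the mutant transcript. ALK had at most 5 counts in any library and was not tested. All 7 epithelial markers passed the expression filter, and their summed level was 6050 to 6240 CPM in WT CDK9, 6280 to 6480 CPM with the inhibitor and 5730 to 5860 CPM in Tyr19Phe CDK9 libraries. Within that sum the markers moved apart in both comparisons with WT CDK9. In Tyr19Phe CDK9 cells the keratin KRT19 was at 0.423 (edgeR adjusted p = 3.9e-17) and the adhesion molecule EPCAM at 0.565 (adjusted p = 1.8e-05) of their levels. CD24 was at 0.828 and ERBB2 at 0.817 (adjusted p = 3.3e-06 and 5.4e-08). KRT8 was 1.30-fold and KRT18 1.31-fold higher (adjusted p = 5.1e-10 and 1.0e-06), and KRT7 was not called. With the inhibitor KRT7 was at 0.786 and CD24 at 0.718 (adjusted p = 1.2e-08 and 1.6e-10). ERBB2 was 1.46-fold and KRT19 1.16-fold higher (adjusted p = 3.0e-13 and 0.017), and KRT8, KRT18 and EPCAM were not called. The part of these markers in the changes of the guidance genes was not tested. None of 5 leukocyte markers, 1 of 5 endothelial markers, 2 of 6 fibroblast markers and 2 of 5 neuronal markers passed.

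Of the 68 genes, 52 had enough reads to be tested and 16 did not. The 16 were SEMA3D, SEMA3E, SEMA3G, SEMA4A, SEMA5B, SEMA6D, EPHA1, EPHA8, EFNB3, SLIT1, ROBO2, ROBO4, NTN3, NTN5, UNC5C and UNC5D. Their highest count in any library was 21, and SEMA5B and UNC5D had 0 counts in all 9 libraries, which at this depth allows up to the floor in each. A group mean of 0.777 CPM was the highest reached by an untested gene. The 52 tested genes ranged from 0.382 to 562 CPM in their mean over the libraries, with a median of 17.3 CPM.

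Levels were compared between genes as CPM per kilobase of the listed gene length. EPHA2, an Eph receptor common on epithelial cells, was the highest of all, at 114 CPM per kilobase in WT CDK9 cells, 105 with the inhibitor and 117 in Tyr19Phe CDK9 cells, and it held 77.0% of the summed Eph receptor level in WT CDK9 cells. PLXNB2, a plexin that binds class 4 semaphorins, followed with 80.0 CPM per kilobase in WT CDK9 cells and 58.2% of the plexin sum. SEMA3C, a secreted semaphorin, led the semaphorins with 56.5 CPM per kilobase, or 36.0% of their sum. NTN4, the laminin-binding netrin, made up 97.2% of the netrin sum in WT CDK9 cells, at 51.4 CPM per kilobase.

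The neuropilin sum was led by NRP1, at 18.0 CPM per kilobase in WT CDK9 cells, and the ephrin sum by EFNB2, at 12.4. The slit, ROBO and UNC5 families were low. SLIT3 led the slits at 1.09 CPM per kilobase, ROBO1 the ROBO receptors at 2.59 and UNC5A the UNC5 receptors at 0.645. The cells therefore had high RNA levels of EPHA2, PLXNB2, SEMA3C and NTN4 beside RNA of all 9 families, and these 4 genes kept their place at the head of their families in each of the 3 groups.

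**Figure D1:**
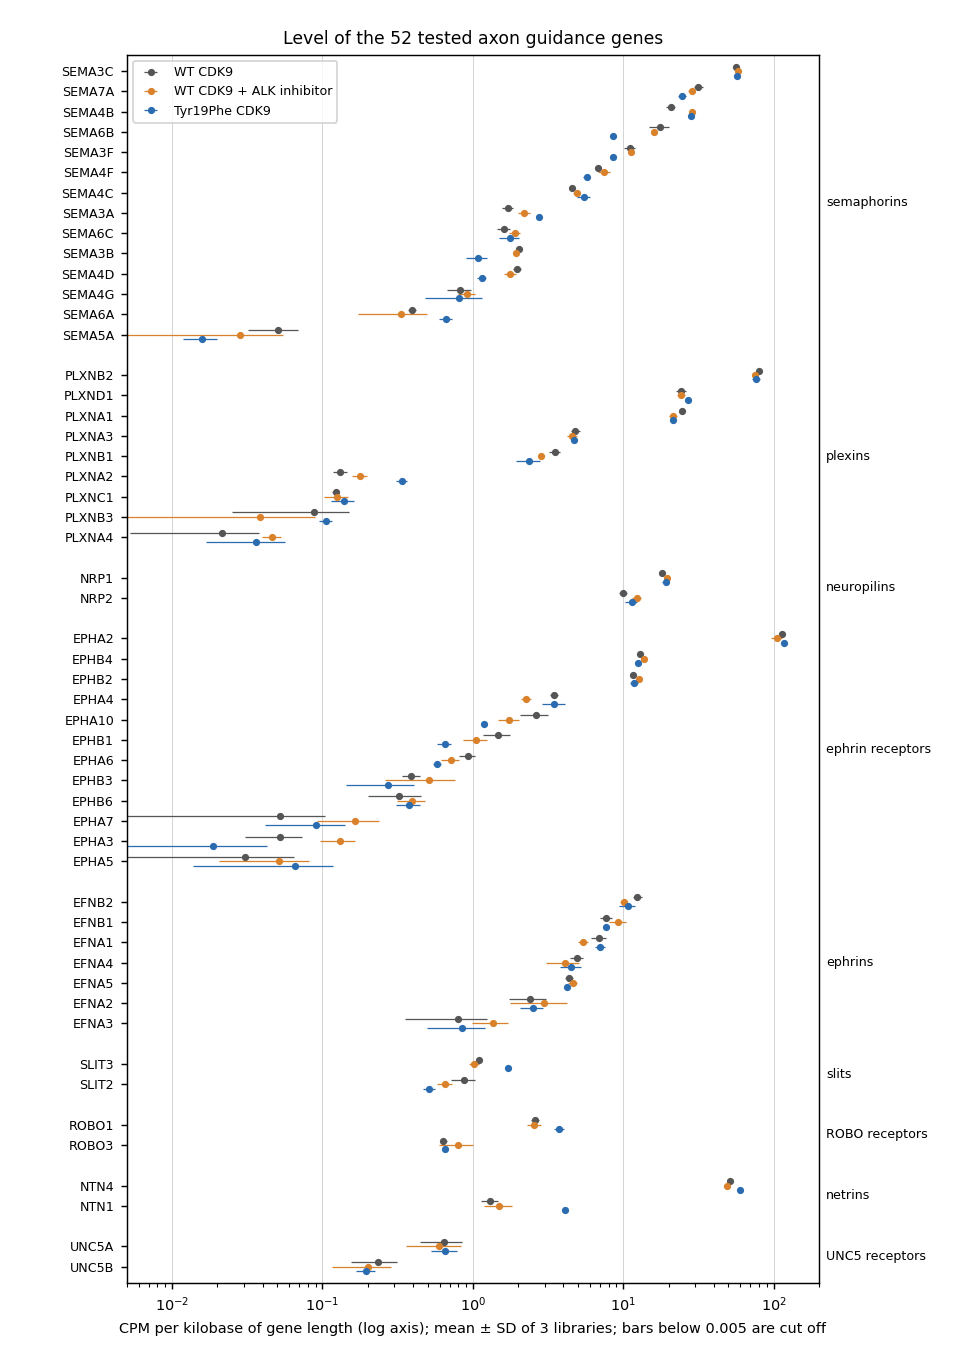
CPM per kilobase of gene length (x axis, log scale) of the 52 tested genes, ordered within families by their mean level; points are means of 3 libraries and bars their SD for WT CDK9 (grey), ALK inhibitor-treated WT CDK9 (orange) and Tyr19Phe CDK9 cells (blue). EPHA2, PLXNB2, SEMA3C and NTN4 stand at the right in all 3 groups, from 48.9 to 117 CPM per kilobase.

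As sums over a family, the netrins stood at 52.9 ± 1.36 CPM per kilobase in WT CDK9, 50.6 ± 0.794 with the inhibitor and 63.9 ± 1.92 in Tyr19Phe CDK9 cells (SD, n = 3 each). The ROBO receptors stood at 3.24 ± 0.164, 3.36 ± 0.270 and 4.42 ± 0.256 in the same order. The semaphorins gave 157 ± 4.97, 164 ± 3.00 and 146 ± 1.57, and the Eph receptors 148 ± 4.10, 139 ± 8.97 and 148 ± 0.819. These sums are descriptions and were not tested. SEMA3C made up 36.0%, 35.5% and 39% of the semaphorin sum in the same order, at 56.5, 58.2 and 57.0 CPM per kilobase. In bulk RNA, fewer cells that express a gene and less RNA of it per cell cannot be told apart.

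Promoter windows, the 250 bases before the RefSeq start in GRCh38.p14, were printed for 4 of the changed genes, taken by their smallest adjusted p among those of the 58 genes that matched an entry. They are shown because these 4 semaphorin and Eph genes changed in Tyr19Phe CDK9 cells, SEMA4B upward and the others downward. SEMA6B, NTN1, EPHA10 and SEMA3A matched no entry, so no window is shown for them. Each is written 5′ to 3′ on the strand of the gene, and capitals mark matches to GGGCGG, the GC box, on either strand, or CACGTG, the E-box. The windows lie at chr15:90184670-90184919 on the plus strand for SEMA4B, chr9:89495657-89495906 on the minus strand for SEMA4D, chr3:134795010-134795259 on the plus strand for EPHB1 and chr15:74433959-74434208 on the minus strand for SEMA7A.
SEMA4B: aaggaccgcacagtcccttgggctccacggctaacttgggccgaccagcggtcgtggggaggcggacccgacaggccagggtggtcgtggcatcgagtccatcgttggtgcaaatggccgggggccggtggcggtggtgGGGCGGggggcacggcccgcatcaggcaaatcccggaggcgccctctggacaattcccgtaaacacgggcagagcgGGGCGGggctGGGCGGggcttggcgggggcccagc
SEMA4D: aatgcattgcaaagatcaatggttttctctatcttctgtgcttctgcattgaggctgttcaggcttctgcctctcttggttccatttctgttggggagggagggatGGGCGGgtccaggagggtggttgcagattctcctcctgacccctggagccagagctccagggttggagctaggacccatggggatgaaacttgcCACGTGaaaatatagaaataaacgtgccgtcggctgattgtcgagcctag
EPHB1: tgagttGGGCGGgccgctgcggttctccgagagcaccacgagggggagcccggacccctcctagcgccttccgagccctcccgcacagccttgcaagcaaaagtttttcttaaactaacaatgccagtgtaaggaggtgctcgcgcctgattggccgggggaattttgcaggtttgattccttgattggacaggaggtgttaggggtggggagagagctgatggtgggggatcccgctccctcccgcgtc
SEMA7A: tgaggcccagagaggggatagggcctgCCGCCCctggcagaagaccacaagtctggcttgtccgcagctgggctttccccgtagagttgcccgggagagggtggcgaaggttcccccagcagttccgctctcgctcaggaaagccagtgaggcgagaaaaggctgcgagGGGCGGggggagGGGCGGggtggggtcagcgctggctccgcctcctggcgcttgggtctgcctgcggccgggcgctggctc

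GGGCGG matched 3 times in the windows of SEMA4B and SEMA7A and once in those of SEMA4D and EPHB1, and 42.6% of 35116 windows of the same length held it. CACGTG matched only in the SEMA4D window of these 4, against 6.34% of all windows. The other motifs searched were the TATA box TATAAA, the letters TGANTCA that cover AP-1 sites and the TEAD motif GGAATG, also on both strands. They had no match in these 4 windows and were held in that order by 10.7%, 6.57% and 11.9% of all windows. Whether these motifs bear on the changes was not tested. The SEMA4B and SEMA7A windows had a GC content of 72% and 70%, EPHB1 60.8% and SEMA4D 52.4%, where the median of all windows was 58%. The EPHB1 window lies 197459 bases inside the gene as listed in the table, at another start than the outermost, and that of SEMA4B 24316 bases inside. SEMA4B has 3 RefSeq starts and SEMA7A 2, of which the start nearest to the table's was used.

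The inhibitor comparison asked what ALK inhibition changes while CDK9 stays wild type. SEMA4B and NRP2 were higher and EPHA4, EPHA10, PLXNA1 and EFNB2 were lower in ALK inhibitor-treated than in untreated WT CDK9 cells (edgeR quasi-likelihood test, Benjamini-Hochberg adjusted p under 0.05 over 16350 genes). The 4 lower genes were 7.69% of the 52 tested, beside 2.73% of all tested genes called lower, and the 2 higher genes 3.85%, beside 1.82%. DESeq2 also called 6, of 44 guidance genes to which it gave an adjusted p. Its share called over all genes was not counted. The median log2 fold change was 0.01 over the 52 genes and -0.001 over all genes. The median of its absolute value was 0.239 over the 52 genes, beside 0.126 over all tested genes. The 52 include genes with few reads, such as EPHA7 at 1.65 ± 0.74 (SE) and PLXNB3 at -1.16 ± 0.87, neither called. Counting error widens such values, and the sets were not matched by level, so these medians do not show that the guidance genes changed more. The changes of the 6 called genes ran from -0.61 to 0.47 on the log2 scale.

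SEMA4B encodes a membrane-bound class 4 semaphorin. Its level was 136, 154 and 143 CPM in the WT CDK9 libraries and 209, 192 and 197 CPM in the inhibitor-treated libraries. In the Tyr19Phe CDK9 libraries it was 201, 200 and 189 CPM. All 6 libraries with inhibitor or mutant lay above all 3 WT CDK9 libraries. The log2 fold change was 0.47 ± 0.05 (SE) with the inhibitor, with an adjusted p of 7.7e-08, and 0.44 ± 0.05 in Tyr19Phe CDK9 cells, with an adjusted p of 6.1e-08. The direct contrast of the mutant with the inhibitor gave -0.02 ± 0.05.

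NRP2 is the neuropilin that serves as coreceptor for SEMA3F and for VEGF-C. It was at 146.43, 129 and 141 CPM in WT CDK9 and 167, 184 and 163 CPM in inhibitor-treated libraries, with no overlap. In Tyr19Phe CDK9 libraries it was at 174, 153 and 146.49 CPM, the lowest of which practically touched the highest WT CDK9 library. The change on the log2 scale was 0.30 ± 0.06 with the inhibitor (adjusted p = 0.0015) and 0.18 ± 0.06 in the mutant (adjusted p = 0.031). Without Tyr19Phe CDK9 replicate 1 or WT CDK9 replicate 2 the latter lost its call, with adjusted p up to 0.27.

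EPHA4 is an Eph receptor that binds both classes of ephrins. It was at 26.8, 24.3 and 27.2 CPM in WT CDK9 libraries, 16.8, 18.7 and 15.9 CPM with the inhibitor and 29.9, 28.0 and 21.1 CPM in Tyr19Phe CDK9 libraries. The inhibitor-treated libraries lay below all 6 others. On the log2 scale the change was -0.61 ± 0.12 with the inhibitor (adjusted p = 0.0014) and 0.01 ± 0.12 in Tyr19Phe CDK9 cells. The direct contrast, which tests the difference between these effects, gave 0.62 ± 0.12 (adjusted p = 0.00023).

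EPHA10, an Eph receptor with a kinase domain held to be inactive, fell in both comparisons. It was at 22.0, 16.4 and 25.5 CPM in WT CDK9, 14.7, 16.3 and 11.8 CPM in inhibitor-treated and 9.68, 10.1 and 9.36 CPM in Tyr19Phe CDK9 libraries. The 3 groups did not overlap, although WT CDK9 replicate 2 lay just above the highest inhibitor-treated library. The fitted log2 change was -0.58 ± 0.15 with the inhibitor (adjusted p = 0.016), -1.13 ± 0.15 in the mutant (adjusted p = 8.2e-07) and -0.55 ± 0.15 between mutant and inhibitor (adjusted p = 0.0081). The inhibitor call was lost without WT CDK9 replicate 1 or 3 or inhibitor replicate 3, with adjusted p up to 0.179, and the direct call without inhibitor replicate 2, with an adjusted p of 0.0593.

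PLXNA1, the plexin partner of neuropilins and of SEMA6D, was at 271, 270 and 265 CPM in WT CDK9, 236, 246 and 218 CPM with the inhibitor and 239, 225 and 236 CPM in Tyr19Phe CDK9 libraries. All 6 libraries with inhibitor or mutant lay below the WT CDK9 libraries. Both log2 fold changes were -0.20 ± 0.05, with adjusted p of 0.0056 for the inhibitor and 0.0014 for the mutant. Without inhibitor replicate 3 the adjusted p of the inhibitor effect was 0.0842.

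EFNB2, the ephrin-B2 ligand, was at 63.8, 65.7 and 57.2 CPM in WT CDK9, 52.7, 51.1 and 47.5 CPM with the inhibitor and 61.0, 52.2 and 47.5 CPM in Tyr19Phe CDK9 libraries. The WT CDK9 and inhibitor-treated libraries did not overlap, whereas the Tyr19Phe CDK9 libraries overlapped both. The log2 fold change with the inhibitor was -0.30 ± 0.08 (adjusted p = 0.030). This call was lost without any 1 of 5 libraries (WT CDK9 replicates 1 and 2 and all 3 inhibitor-treated ones), with adjusted p up to 0.166, and with scaling by library size alone (adjusted p = 0.0556). In GENCODE release 44 a gene on the opposite strand shares 36.4% of the EFNB2 exon bases. The table lists 55 counts in all for that gene, and the strand setting of the counting is not given in the sources used here. Without inhibitor replicate 3 the calls of EPHA10, PLXNA1 and EFNB2 were all lost, and 3 genes remained called with the inhibitor, SEMA4B, NRP2 and EPHA4.

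**Figure D2:**
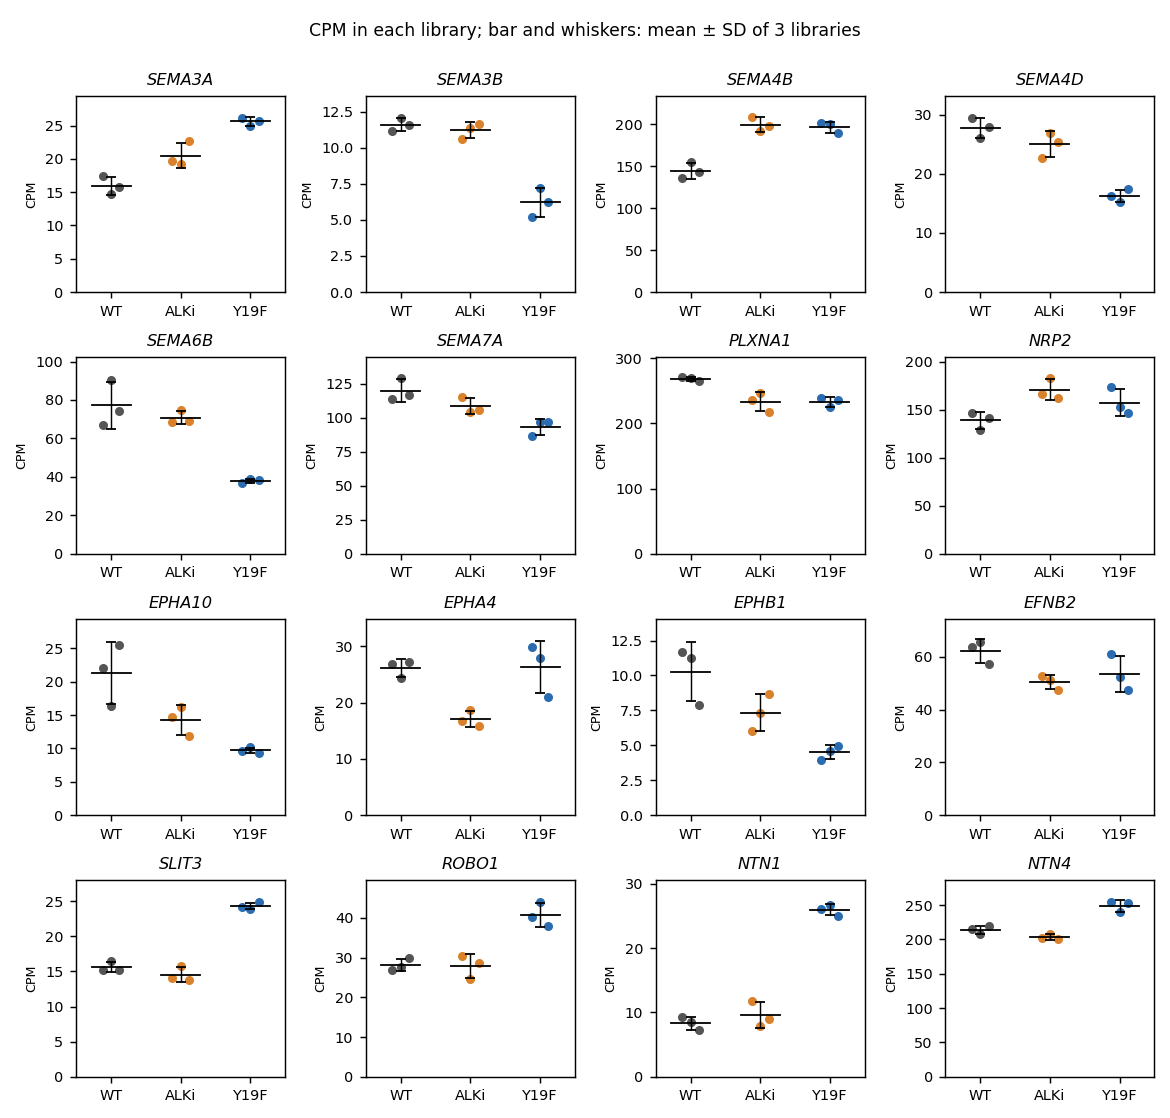
CPM (y axis, linear, from 0) in each library for the 16 genes given in every library; points are libraries of WT CDK9 (grey, WT), ALK inhibitor-treated WT CDK9 (orange, ALKi) and Tyr19Phe CDK9 cells (blue, Y19F), with the mean and SD of 3 libraries. NTN1 stands at 25.1 to 26.7 CPM in Tyr19Phe CDK9 libraries against 7.22 to 11.8 CPM in the other 6, and SEMA6B at 36.8 to 38.9 CPM against 66.8 to 90.3 CPM.

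The Tyr19Phe comparison set the line with a CDK9 that cannot be phosphorylated at tyrosine 19 against the WT CDK9 line. In Tyr19Phe CDK9 cells 10 genes were higher and 12 lower than in WT CDK9 cells, with both netrins that were tested, SLIT3 and ROBO1 among the higher and 6 semaphorins and 3 Eph receptors among the lower. The 12 lower genes were 23.1% of the 52 tested, beside 10.4% of all tested genes called lower, and the 10 higher genes 19.2%, beside 7.61%. The median log2 fold change was 0.01 over the 52 genes. The median of its absolute value was 0.253, beside 0.181 over all tested genes, with the limit given for the inhibitor comparison. DESeq2 called 21. The comparison shares its WT CDK9 libraries with the inhibitor comparison. The libraries of the 2 groups did not overlap for 21 of the 22 genes, PLXND1 being the exception, beside 95.2% of all called and 32.6% of all tested genes. Of the 52 tested genes 5 were called with a change of at least 1 on the log2 scale, beside 293 of all 16350 tested genes.

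By role, 7 of 25 tested ligands were lower and 6 higher, or 28% and 24%. Of 27 tested receptors 5 were lower and 4 higher, or 18.5% and 14.8%. Over all tested genes 10.4% were lower and 7.61% higher. Among the families, 6 of 14 semaphorins were lower and 3 higher. Of 9 plexins 2 were lower and 2 higher, and of 12 Eph receptors 3 were lower. None of 7 ephrins was called in Tyr19Phe CDK9 cells by edgeR or DESeq2, and 1 had an unadjusted p under 0.05. Neither of the UNC5 receptors tested was called in any of the 3 comparisons by edgeR or DESeq2, and none had an unadjusted p under 0.05. At the shares called over all tested genes, families of 7 and 2 tested genes can lack calls, so this is no result about them.

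NTN1 encodes netrin-1, the secreted ligand of DCC, neogenin and UNC5 receptors, and lies on the plus strand at chr17:9021542-9244000 (hg38). It was at 9.24, 8.44 and 7.22 CPM in WT CDK9 libraries, 11.8, 7.85 and 9.04 CPM in inhibitor-treated libraries and 26.1, 26.7 and 25.1 CPM in Tyr19Phe CDK9 libraries. Every Tyr19Phe CDK9 library was above all 6 others, which overlapped each other. It was 3.12-fold higher than in WT CDK9 cells, a log2 fold change of 1.64 ± 0.15 (adjusted p = 3.5e-10), and 1.43 ± 0.14 higher on the log2 scale than in inhibitor-treated cells (adjusted p = 3.2e-09). It had the largest log2 fold change of the 22 called genes. Per kilobase NTN1 rose from 1.30 CPM in WT CDK9 to 4.07 CPM in Tyr19Phe CDK9 cells and stayed far under NTN4.

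NTN4 was at 215, 207 and 220 CPM in WT CDK9, 202, 208 and 201 CPM in inhibitor-treated and 255, 240 and 253 CPM in Tyr19Phe CDK9 libraries. The Tyr19Phe CDK9 libraries were above all others. The log2 fold change was 0.22 ± 0.04 against WT CDK9 (adjusted p = 0.00043) and 0.29 ± 0.04 against the inhibitor (adjusted p = 8.0e-06). Both netrins were thus higher in Tyr19Phe CDK9 than in WT CDK9 cells, NTN1 by a larger log2 value from a lower level. Each call held with any 1 of the 9 libraries left out.

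Among the receptors of netrins, DCC had 0 counts in all 9 libraries. UNC5A was at 1.85 to 3.48 CPM in WT CDK9 libraries and 2.37 to 3.47 CPM in Tyr19Phe CDK9 libraries, and UNC5B at 1.06 to 2.15 and 1.13 to 1.52 CPM. Neogenin (NEO1), a receptor of netrins and of repulsive guidance molecules, was at 81.4 ± 3.41 CPM in WT CDK9 and 64.4 ± 3.40 CPM in Tyr19Phe CDK9 cells (SD, n = 3 each), and fell by 0.34 on the log2 scale (SE 0.06, adjusted p = 0.00023). DCC and NEO1, which the naming rule does not choose, were named after their values were seen.

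SLIT3, a secreted slit ligand, was at 15.2, 16.4 and 15.2 CPM in WT CDK9, 14.0, 15.8 and 13.7 CPM in inhibitor-treated and 24.2, 24.0 and 24.9 CPM in Tyr19Phe CDK9 libraries. The mutant libraries again lay above all others. SLIT3 changed on the log2 scale by 0.64 ± 0.12 against WT CDK9 (adjusted p = 9.9e-05) and 0.75 ± 0.12 against the inhibitor (adjusted p = 9.7e-06). SLIT2, its paralog, changed the other way, by -0.78 ± 0.19 (adjusted p = 0.0037), from 7.54 to 10.3 CPM in WT CDK9 libraries to 4.64 to 5.52 CPM in Tyr19Phe CDK9 libraries. With the inhibitor SLIT2 was at 5.82 to 7.12 CPM, below all WT CDK9 libraries, and was not called (-0.44 ± 0.19, adjusted p = 0.26). SLIT3 was 55% of the slit sum per kilobase in WT CDK9 and 75.9% in Tyr19Phe CDK9 cells.

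ROBO1, the main ROBO receptor of these cells by level, was at 27.0, 27.5 and 30.0 CPM in WT CDK9, 30.5, 24.5 and 28.5 CPM in inhibitor-treated and 40.1, 43.99 and 38.1 CPM in Tyr19Phe CDK9 libraries. The 3 mutant libraries were above the 6 others. On the log2 scale the change was 0.53 ± 0.10 against WT CDK9 (adjusted p = 0.00012) and 0.55 ± 0.10 against the inhibitor (adjusted p = 7.2e-05). ROBO3, the other tested receptor of the family, was at 4.22 to 4.65 CPM in WT CDK9 and 4.41 to 4.72 CPM in Tyr19Phe CDK9 libraries, with a log2 difference of 0.03 ± 0.23.

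SEMA6B, a transmembrane semaphorin that binds class A plexins, lies on the minus strand at chr19:4542593-4559808 (hg38). It was at 66.8, 90.3 and 74.3 CPM in WT CDK9, 68.7, 74.7 and 68.8 CPM in inhibitor-treated and 36.8, 38.9 and 38.2 CPM in Tyr19Phe CDK9 libraries. Each mutant library lay below all 6 others. The fitted log2 change was -1.02 ± 0.08 against WT CDK9 (adjusted p = 5.9e-11), to 0.492 of the WT CDK9 level, and -0.90 ± 0.08 against the inhibitor (adjusted p = 7.8e-10). Its paralog SEMA6A, at 4.01 to 4.54 CPM in WT CDK9 and 6.50 to 7.85 CPM in Tyr19Phe CDK9 libraries, changed by 0.75 ± 0.25 in the opposite direction (adjusted p = 0.033), and SEMA6C by 0.14 ± 0.16, which was not called. DESeq2 gave SEMA6A an adjusted p of 0.0512.

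SEMA4D, the ligand of plexin-B1, was at 29.4, 26.0 and 28.0 CPM in WT CDK9, 22.6, 27.0 and 25.4 CPM in inhibitor-treated and 16.2, 15.2 and 17.4 CPM in Tyr19Phe CDK9 libraries. The mutant libraries were below all others, and the WT CDK9 and inhibitor-treated libraries overlapped. The log2 fold change was -0.77 ± 0.11 against WT CDK9 (adjusted p = 2.4e-06) and -0.62 ± 0.11 against the inhibitor (adjusted p = 6.9e-05). Its receptor PLXNB1 was also lower in the mutant, by -0.57 ± 0.11 (adjusted p = 0.00028), with 31.2 to 37.0 CPM in WT CDK9 and 18.3 to 25.5 CPM in Tyr19Phe CDK9 libraries. With the inhibitor PLXNB1 was at 27.3 to 28.5 CPM, below all WT CDK9 libraries, and was not called (-0.30 ± 0.11, adjusted p = 0.15).

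SEMA7A is anchored to the membrane by a lipid and signals through integrins and plexin-C1. It was at 114, 129 and 117 CPM in WT CDK9, 115, 105 and 106 CPM in inhibitor-treated and 86.2, 96.7 and 96.8 CPM in Tyr19Phe CDK9 libraries. The mutant libraries were below all others. SEMA7A changed on the log2 scale by -0.36 ± 0.06 against WT CDK9 (adjusted p = 5.1e-05) and -0.22 ± 0.06 against the inhibitor (adjusted p = 0.010). The latter lost its call without inhibitor replicate 1 or Tyr19Phe CDK9 replicate 1, with adjusted p up to 0.0873. PLXNC1, its plexin, was at 1.13 to 1.27 CPM in WT CDK9 libraries and was not called.

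The class 3 semaphorins, which are secreted, moved apart. SEMA3A, the best-known repellent of the class, was at 17.4, 14.7 and 15.8 CPM in WT CDK9, 19.6, 19.2 and 22.6 CPM in inhibitor-treated and 26.2, 24.9 and 25.7 CPM in Tyr19Phe CDK9 libraries. The 3 groups did not overlap. For SEMA3A the log2 fold change was 0.68 ± 0.11 in the mutant (adjusted p = 3.4e-05) and 0.36 ± 0.12 with the inhibitor, which was not called (adjusted p = 0.074).

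SEMA3B, a class 3 semaphorin studied as a tumour suppressor, was at 11.2, 12.03 and 11.6 CPM in WT CDK9, 10.6, 11.4 and 11.7 CPM in inhibitor-treated and 5.21, 7.19 and 6.22 CPM in Tyr19Phe CDK9 libraries. The mutant libraries were below the 6 others, which overlapped. On the log2 scale the change was -0.90 ± 0.16 against WT CDK9 (adjusted p = 8.6e-05) and -0.85 ± 0.16 against the inhibitor (adjusted p = 0.00017). SEMA3F, the NRP2 ligand, changed by -0.36 ± 0.08 against WT CDK9 (adjusted p = 0.00098), from 48.3 to 56.2 CPM to 40.3 to 42.3 CPM. SEMA3C, the most abundant of the class, was at 344 to 365 CPM in WT CDK9 and 349 to 369.5 CPM in Tyr19Phe CDK9 libraries, with a log2 difference of 0.01 ± 0.04.

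EPHB1, an Eph receptor for B-class ephrins, was at 11.7, 11.2 and 7.86 CPM in WT CDK9, 6.03, 7.30 and 8.68 CPM in inhibitor-treated and 3.96, 4.63 and 4.94 CPM in Tyr19Phe CDK9 libraries. The mutant libraries were below all others, and WT CDK9 replicate 3 lay within the inhibitor-treated range. The fitted log2 change was -1.19 ± 0.20 against WT CDK9 (adjusted p = 2.9e-05), the most negative of the 22 called, and -0.70 ± 0.20 against the inhibitor (adjusted p = 0.0098). The latter call was lost without inhibitor replicate 3 or Tyr19Phe CDK9 replicate 1, with adjusted p up to 0.0845. EPHB2 and EPHB4, receptors of the same class at higher levels, differed from WT CDK9 by 0.02 ± 0.05 and -0.05 ± 0.06 and were not called.

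The remaining genes called in Tyr19Phe CDK9 cells were PLXNA2, PLXND1, SEMA4F and EPHA6. PLXNA2, a plexin for class 3 and 6 semaphorins, was 1.36 ± 0.29 higher on the log2 scale (adjusted p = 0.00082) from a low level, 1.59 to 1.95 CPM in WT CDK9 and 4.23 to 4.98 CPM in Tyr19Phe CDK9 libraries. PLXND1, the plexin of SEMA3E, was higher by 0.16 ± 0.05 (adjusted p = 0.032), and its libraries overlapped. SEMA4F, a membrane-bound semaphorin, was lower by -0.25 ± 0.09 (adjusted p = 0.040) and EPHA6, an Eph receptor, by -0.67 ± 0.23 (adjusted p = 0.038). EPHA6 shares 11% of its exon bases with another gene on the same strand, which the table lists with 4 counts in all.

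Of the 22 calls, 17 held with each of the 9 libraries left out in turn. PLXND1 lost its call without WT CDK9 replicate 1 or 3 or Tyr19Phe CDK9 replicate 1 or 2, with adjusted p up to 0.21. SEMA4F lost it without any WT CDK9 library or Tyr19Phe CDK9 replicate 1 or 3 (up to 0.138), and SEMA6A without any WT CDK9 library or Tyr19Phe CDK9 replicate 2 or 3 (up to 0.1). EPHA6 lost it without any of the 6 libraries compared (up to 0.151), and NRP2 as given above.

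**Figure D3:**
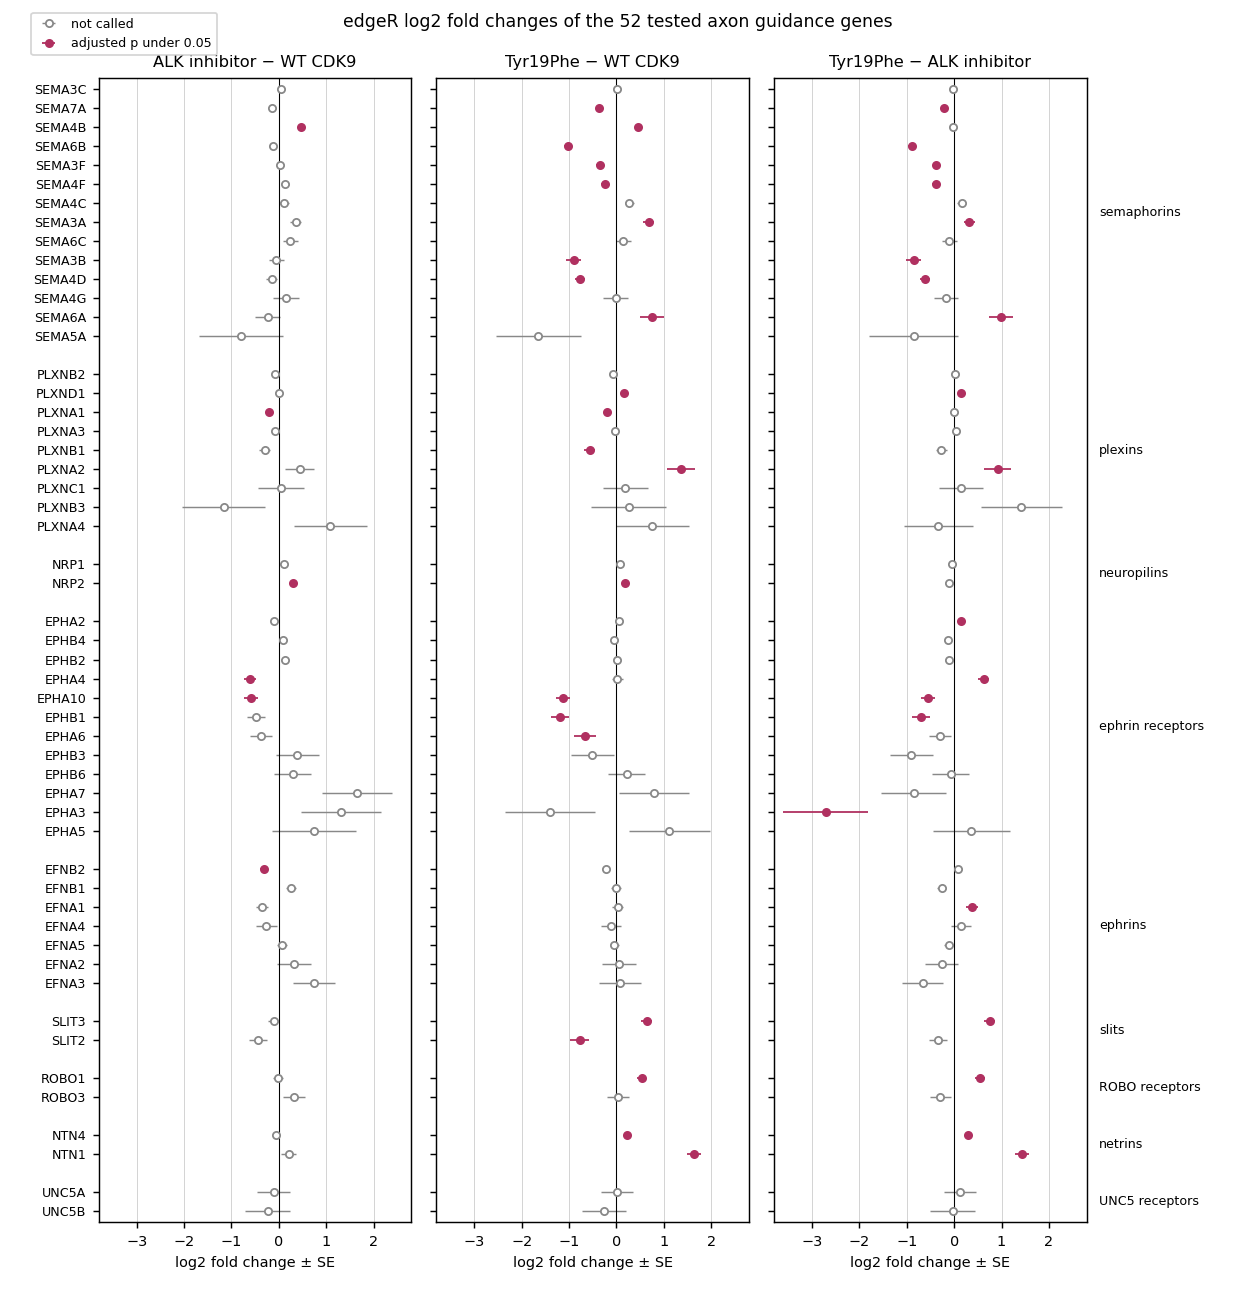
edgeR log2 fold changes (x axis, points) with their SE (bars) of the 52 tested genes by family for inhibitor against WT CDK9, Tyr19Phe against WT CDK9 and Tyr19Phe against inhibitor; filled points have an adjusted p under 0.05. The filled points number 6, 22 and 20 of the 52 genes from left to right, beside 744, 2940 and 3387 of all 16350 tested genes.

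The direct contrast of Tyr19Phe CDK9 with inhibitor-treated WT CDK9 cells tested where the mutant and the inhibitor differed. In Tyr19Phe CDK9 cells 11 genes were higher and 9 lower than with the inhibitor, which is 21.2% and 17.3% of the 52 tested, beside 9.57% and 11.1% of all tested genes. DESeq2 also called 20, and its share over all genes was not counted. The contrast shares its libraries with the other comparisons. SEMA4B, NRP2, PLXNA1, PLXNB1, SLIT2 and EPHA6 were called in the mutant against WT CDK9 but not in the direct contrast, where SLIT2 had the most negative difference among them, at -0.34 ± 0.20. A p that misses the threshold does not show that their levels were alike.

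The values not given so far follow. The log2 difference was 0.98 ± 0.25 for SEMA6A (adjusted p = 0.0044), 0.92 ± 0.28 for PLXNA2 (adjusted p = 0.018), 0.32 ± 0.11 for SEMA3A (adjusted p = 0.037) and 0.15 ± 0.05 for PLXND1 (adjusted p = 0.036). It was -0.39 ± 0.08 for SEMA4F (adjusted p = 0.00096) and -0.38 ± 0.08 for SEMA3F (adjusted p = 0.00042). Besides EPHA4, described above, EPHA2, EFNA1 and EPHA3 were called here and not in the Tyr19Phe comparison with WT CDK9.

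EPHA2 was at 491, 481 and 489 CPM in Tyr19Phe CDK9 and 481, 422 and 413 CPM in inhibitor-treated libraries, a log2 difference of 0.15 ± 0.04 (adjusted p = 0.014). Its lowest mutant library lay just above its highest inhibitor-treated library. EFNA1, an ephrin ligand of EPHA2, was at 19.4, 17.4 and 16.7 CPM in Tyr19Phe CDK9 and 12.6, 14.2 and 14.4 CPM in inhibitor-treated libraries, a log2 difference of 0.38 ± 0.13 (adjusted p = 0.033). Ligand and receptor were thus both lower with the inhibitor than in the mutant, whereas neither was called against WT CDK9 in the other comparisons. EPHA3, another Eph receptor, had 15, 14 and 22 counts with the inhibitor and 9, 2 and 0 counts in the deeper Tyr19Phe CDK9 libraries, and the fit gave a log2 difference of -2.71 ± 0.91 (adjusted p = 0.027). With so few reads and a library at 0, this value is no exact fold. EPHA3 passed the expression filter (0.507 CPM in at least 3 libraries) through all 3 inhibitor-treated libraries, where it was highest, and WT CDK9 replicate 1. Without EPHA3 the direct calls number 19.

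Of the 20 direct calls, 11 held with each library left out in turn. EPHA2 lost its call without inhibitor replicate 2 or 3 (adjusted p up to 0.132), EFNA1 without inhibitor replicate 1 or 3 or Tyr19Phe CDK9 replicate 1 or 2 (up to 0.145) and PLXNA2 without inhibitor replicate 3 or Tyr19Phe CDK9 replicate 1 or 2 (up to 0.0663). SEMA3A lost it without inhibitor replicate 1 or 2 or any Tyr19Phe CDK9 library (up to 0.124), and PLXND1 without WT CDK9 replicate 1, inhibitor replicate 2 or 3 or Tyr19Phe CDK9 replicate 1 or 2 (up to 0.202). EPHA3 lost it without WT CDK9 replicate 1, any inhibitor-treated library or Tyr19Phe CDK9 replicate 2 or 3 (up to 0.138). SEMA7A, EPHA10 and EPHB1 are given above. At an adjusted p under 0.01, 13 of the 20 remained, and the share of all tested genes at that threshold was not counted.

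The genes were set beside their chromosomal neighbours as a description. The median log2 fold change of the other tested genes within 5 Mb lay between -0.136 and 0.080 for the 22 genes called in Tyr19Phe CDK9 cells. NTN1 rose by 1.64 while its 118 neighbours had a median of 0.02, and SEMA6B fell by 1.02 with a neighbour median of 0.05. SEMA3A rose by 0.68 within a neighbourhood whose median was -0.136, the lowest of all, and PLXNA2 by 1.36 with a neighbour median of -0.09. The called genes were selected for their change, and a median over neighbours tends to lie near 0, so a gap between them was built into the comparison. It does not show that a change is particular to the gene, and none of these medians was tested. Some medians rest on few neighbours, 6 for ROBO1 and 15 for SEMA3A. A change of a segment smaller than the window need not move its median, and changes of segments were not tested.

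**Figure D4:**
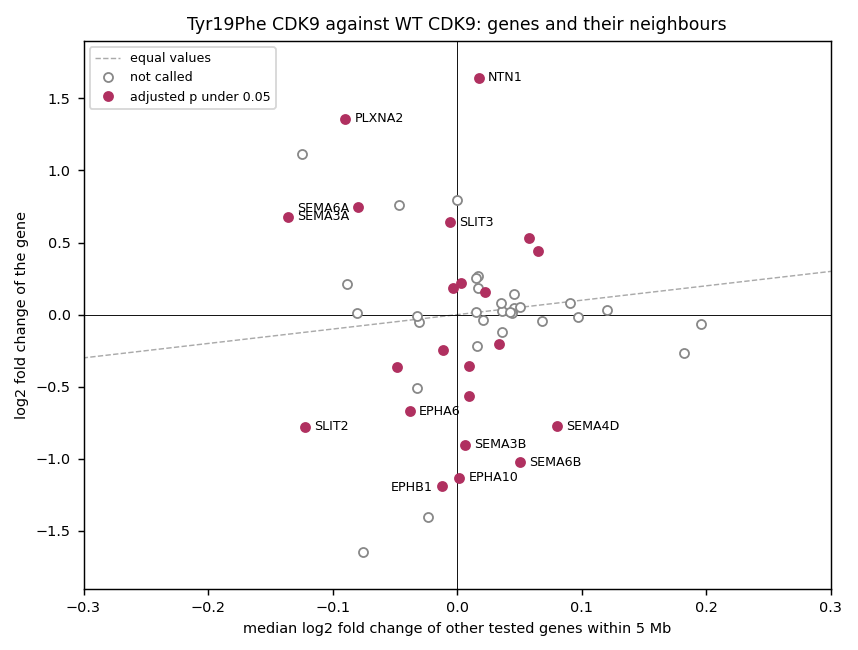
Log2 fold change in Tyr19Phe against WT CDK9 cells of each tested gene (y axis) against the median log2 fold change of the other tested genes within 5 Mb (x axis, a narrower scale); filled points have an adjusted p under 0.05, called genes that changed by more than 0.6 are named, and the dashed line marks equal values. Neighbour medians run from -0.136 to 0.196 and the genes from -1.65 to 1.64, and medians over several genes vary less than single genes.

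Other genes of the guidance pathways came from a pair of lists. Of 24 coreceptors and ligand partners, 18 were tested, and in Tyr19Phe CDK9 cells 10 of them were lower and 2 higher, or 55.6% and 11.1%, beside 10.4% and 7.61% of all tested genes. GPC1, a heparan sulfate proteoglycan that binds slits, changed by -0.74 ± 0.05 (adjusted p = 1.3e-13) and NRCAM, a neuropilin partner, by -0.54 ± 0.06 (adjusted p = 3.7e-08). ERBB2, a partner of plexin-B1, changed by -0.29 ± 0.03 (adjusted p = 5.4e-08) in the mutant and by 0.54 ± 0.03 with the inhibitor (adjusted p = 3.0e-13), and the direct contrast gave -0.84 ± 0.03 (adjusted p = 1.2e-18). ERBB2 is also on the list of epithelial markers. With the inhibitor 2 of the 18 were lower and 4 higher, or 11.1% and 22.2%, beside 2.73% and 1.82% of all tested genes, with SDC2, a syndecan, at -0.48 ± 0.04 (adjusted p = 4.7e-10) and SDC1, another, at 0.29 ± 0.04 (adjusted p = 1.9e-05). In the direct contrast 9 were lower and 3 higher, or 50% and 16.7%, beside 11.1% and 9.57%, GPC1 at -0.68 ± 0.05 (adjusted p = 9.6e-13) and SDC1 at -0.60 ± 0.04 (adjusted p = 2.3e-12). The median log2 fold change of the list was -0.20 in the mutant and -0.06 with the inhibitor.

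Of 53 intracellular effectors, 52 were tested, and in Tyr19Phe CDK9 cells 8 were lower and 13 higher, or 15.4% and 25%, beside 10.4% and 7.61% of all tested genes. DPYSL5, a CRMP family protein of semaphorin and netrin signalling, was higher by 1.52 ± 0.10 (adjusted p = 1.0e-13), DPYSL3 of the same family by 0.30 ± 0.04 (adjusted p = 2.7e-07) and MICAL2, an actin-oxidizing enzyme, by 0.25 ± 0.04 (adjusted p = 3.9e-06). With the inhibitor 3 were lower and 4 higher, or 5.77% and 7.69%, beside 2.73% and 1.82% of all tested genes. ENAH, an actin regulator downstream of ROBO and netrin receptors, changed by -0.29 ± 0.04 (adjusted p = 1.8e-05), DAPK1, a kinase downstream of UNC5B, by -0.24 ± 0.05 (adjusted p = 0.0015) and MICAL2 by 0.20 ± 0.04 (adjusted p = 0.00038). In the direct contrast 10 were lower and 10 higher, each 19.2%, beside 11.1% and 9.57% of all tested genes, led by DPYSL5 at 1.61 ± 0.10 (adjusted p = 1.8e-14), DPYSL3 at 0.37 ± 0.04 (adjusted p = 2.8e-09) and GIPC1, a neuropilin-binding adaptor, at 0.42 ± 0.05 (adjusted p = 1.2e-07).

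Sums of fibroblast and neuronal markers also differed between the groups. The summed fibroblast markers were at 110 to 113 CPM in WT CDK9, 124 to 162 CPM in inhibitor-treated and 38.1 to 51.8 CPM in Tyr19Phe CDK9 libraries, nearly all of it COL1A1, while COL3A1, DCN and LUM had at most 4 counts in any library. The summed neuronal markers were at 32.7 to 38.7, 52.3 to 56.4 and 21.2 to 29.3 CPM, nearly all of it MAP2, while SNAP25 and NEFM had 0 counts in all 9 libraries. The summed endothelial markers were at 1.08 to 2.62, 1.32 to 2.04 and 3.35 to 4.34 CPM. KDR was the only one tested and was called in no comparison. CDH5 had 0 counts in each WT CDK9 library and 14, 35 and 17 counts in Tyr19Phe CDK9 libraries, where PECAM1 had 0 counts. The leukocyte markers stayed at or under 0.83 CPM. The part of other cell types in the changes of the guidance genes was not tested.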

How the data were processed

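The authors sequenced total RNA of 9 SKOV3 libraries through a company. Per the submitters' processing notes, HISAT2 2.0.5, featureCounts 1.5.0-p3 and CASAVA were used with GRCh38/hg38. The annotation release and strand setting are not given in the sources used here. The deposited values are whole-number counts of reads per gene and library, not normalized, beside a gene length set by the authors' annotation.

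Testing used edgeR 4.0.16 under R 4.3.3, with limma 3.58.1 loaded, and DESeq2 1.42.0 served as an alternative. Genes passed filterByExpr (minimum count 10, minimum total 15), libraries were scaled by TMM (factors 0.986 to 1.01), and 1 quasi-likelihood fit held all 9 libraries and estimated each group's mean. Benjamini-Hochberg adjustment covered the 16350 tested genes, and an adjusted p under 0.05 was a call. CPM is relative to 1000000 TMM-scaled counts. Floors cover counting error only. The code was tested on simulated counts. Tables and plots used Python 3.11.15, pandas 2.3.3 and matplotlib 3.10.9. Replicates within a group differed by more than sampling noise. Exon overlaps came from GENCODE release 44, which holds all 68 genes at the same locus, and promoter windows from RefSeq (GRCh38.p14).

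The members and lists were chosen with earlier results of these data known. Each called gene is named, the up to 8 per comparison with the smallest adjusted p and a mean of at least 1 CPM are given in every library, the highest gene per family is named, and up to 3 called genes per pathway list and comparison are named. Alternatives were other scalings, other filters, DESeq2, a replicate block, a fit of only the compared groups, a threshold of 0.01 and each library left out in turn.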

Additional observations from a re-analysis of the deposited data

How the results depend on the processing

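The counts of called guidance genes were 6 for the inhibitor, 22 for Tyr19Phe and 20 for the direct contrast. They ranged from 3 to 6, from 18 to 23 and from 14 to 20 with 1 library left out. The low of 3 came without inhibitor replicate 3. At an adjusted p under 0.01 the direct contrast called 13. Shares called over all tested genes were not counted under the alternatives. Under every other alternative (DESeq2's size factors, library size alone, DESeq2, no filter, at least 10 counts in every library, only the compared groups) each count stayed within 1.5 times its main value. Same-numbered libraries did not deviate together over all tested genes (correlations from -0.012 to 0.026), which gave no sign of pairing. Noise in genes with few reads lowers such values, so pairing is not excluded. With a replicate block the counts were 6, 23 and 20. Of 815 single-gene fits under the alternatives, 733 kept direction and call, 82 kept direction and lost the call, and 0 reversed. Of 48 calls, 31 held in every fit. Precision is limited by 3 libraries per group and, for genes with few reads such as EPHA3 and PLXNA2, by depth.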

Other observations

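NTNG1, which encodes the membrane-anchored netrin-G1 and falls outside the symbols of the 68 genes, was chosen after its values were seen. It was at 39.8, 39.6 and 47.5 CPM in WT CDK9, 64.6, 61.9 and 63.8 CPM in inhibitor-treated and 52.5, 44.6 and 51.4 CPM in Tyr19Phe CDK9 libraries. All inhibitor-treated libraries lay above the 6 others, and the log2 fold change with the inhibitor was 0.59 ± 0.08 (edgeR adjusted p = 8.8e-06). In Tyr19Phe CDK9 cells it was 0.23 ± 0.08 (adjusted p = 0.054), and the direct contrast gave -0.36 ± 0.08 (adjusted p = 0.0013). Its level thus moved with the inhibitor, whereas neither NTN1 nor NTN4 was called there. NTNG2 had at most 7 counts in any library. RGMA, a repulsive guidance molecule that binds neogenin, had at most 8 counts, and RGMB, its relative, was at 9.91 ± 0.959 CPM in WT CDK9 and 9.37 ± 0.190 CPM in Tyr19Phe CDK9 cells (SD, n = 3 each) and was not called.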
